A study of Mus musculus with 4 samples.

Results

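The genes described here are 5 pairs of isoforms of energy enzymes. In each pair a form known from skeletal muscle is set beside a form called general here. For lactate dehydrogenase these names are loose, since Ldhb is the heart-type subunit. Counts and medians over muscle or general isoforms include that pair. The muscle forms were Ckm (ENSMUSG00000030399), Pfkm (ENSMUSG00000033065), Pgam2 (ENSMUSG00000020475), Eno3 (ENSMUSG00000060600) and Ldha (ENSMUSG00000063229). Their general partners were Ckb (ENSMUSG00000001270), Pfkl (ENSMUSG00000020277), Pgam1 (ENSMUSG00000011752), Eno1 (ENSMUSG00000063524) and Ldhb (ENSMUSG00000030246). They were chosen by symbol, and all 10 were among the 13772 genes of each of the 4 tables. Every member reached 20 CPM (a cell's UMI counts scaled to the same total in every cell and then averaged over cells) in at least 1 library of every comparison, so none was lost to the filter on low values.

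Creatine kinase passes phosphate between ATP and creatine, phosphofructokinase commits sugar to glycolysis, phosphoglycerate mutase and enolase carry out late steps of glycolysis, and lactate dehydrogenase interconverts pyruvate and lactate. Vertebrates encode each of these enzymes in several genes, and a maturing muscle cell is known to make more of the muscle form while the general form is kept or reduced. Myog encodes myogenin, the transcription factor that switches muscle stem cell progeny into differentiation, and it binds short E-box motifs, often beside sites for MEF2 factors.

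Single-cell RNA was sequenced from cultured muscle stem cells of wild-type C57BL/6 mice in 4 libraries: aged cells on stiff polydimethylsiloxane (29 kPa), aged cells on soft polydimethylsiloxane (12 kPa), young cells on the stiff and young cells on the soft material. All cells had spent 7 days on the silicone with 10% FBS and had been lifted with trypsin. The study's question was how substrate stiffness acts on aged muscle stem cells. The labels did not give the age in months, or how many animals or cultures went into a library. With 1 library for each combination there is no replicate, no test and no p-value, and every interval printed is a 95% interval that covers counting error only.

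The libraries held 1738 cells (aged stiff), 1333 (aged soft), 1479 (young stiff) and 1360 (young soft) after filters, with 43961026 to 68222703 UMIs (molecules counted once each) and medians of 28613 to 37081 UMIs per cell. A single cell barcode occurred in more than 1 library, shared by aged stiff and young soft. The labelled cell type had its markers: 6 of 6 myogenic genes were found, and their summed level ran from 5875 to 8084 CPM. Markers of fibroblasts, endothelium, Schwann cells and smooth muscle each summed to at most 5.50 CPM. Immune markers (4 of 4 found) summed to 6.60 and 6.54 CPM in aged stiff and aged soft cells, against 1.69 and 1.35 CPM in young stiff and young soft cells. Most of that was Lyz2 in the aged libraries and Cd68 in the young ones, while the defining immune gene Ptprc was at 0 in both young libraries and at most 0.0885 CPM in the aged ones. The part of these few immune molecules in the age differences was not tested.

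The start regions of these genes differ in the motifs that muscle factors bind, and those of the 3 muscle isoforms with a single annotated start that differed most between cells with the least and the most sarcomere RNA are shown with 2 general partners. Each sequence is the 250 bases before the start site on the gene's own strand, from RefSeq (GRCm38.p6). Capitals mark E-boxes (CANNTG) and matches to the MEF2 motif. Ckm lies at chr7:19410844-19411093 on the plus strand, Pgam2 at chr11:5803797-5804046 on the minus strand, Eno3 at chr11:70656926-70657175 on the plus strand, Ckb at chr12:111672339-111672588 on the minus strand and Pgam1 at chr19:41911621-41911870 on the plus strand.
Ckm: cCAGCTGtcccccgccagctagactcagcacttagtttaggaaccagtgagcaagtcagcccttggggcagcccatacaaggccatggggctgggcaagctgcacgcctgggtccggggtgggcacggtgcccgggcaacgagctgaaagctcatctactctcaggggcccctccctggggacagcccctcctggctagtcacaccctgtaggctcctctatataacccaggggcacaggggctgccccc
Pgam2: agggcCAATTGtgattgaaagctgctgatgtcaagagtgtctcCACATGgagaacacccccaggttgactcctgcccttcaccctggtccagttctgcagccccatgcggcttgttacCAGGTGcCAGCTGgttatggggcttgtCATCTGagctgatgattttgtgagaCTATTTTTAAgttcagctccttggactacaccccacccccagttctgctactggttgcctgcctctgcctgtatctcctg
Eno3: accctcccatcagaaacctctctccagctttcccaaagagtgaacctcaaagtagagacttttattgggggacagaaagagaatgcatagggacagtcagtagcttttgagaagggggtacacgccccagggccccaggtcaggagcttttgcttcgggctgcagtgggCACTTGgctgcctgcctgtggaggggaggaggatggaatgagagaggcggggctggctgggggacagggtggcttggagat
Ckb: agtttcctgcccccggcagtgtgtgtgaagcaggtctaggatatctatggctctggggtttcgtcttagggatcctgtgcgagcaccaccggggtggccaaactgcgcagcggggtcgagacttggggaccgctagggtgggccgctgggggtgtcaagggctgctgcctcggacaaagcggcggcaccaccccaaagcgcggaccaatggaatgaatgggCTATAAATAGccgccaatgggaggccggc
Pgam1: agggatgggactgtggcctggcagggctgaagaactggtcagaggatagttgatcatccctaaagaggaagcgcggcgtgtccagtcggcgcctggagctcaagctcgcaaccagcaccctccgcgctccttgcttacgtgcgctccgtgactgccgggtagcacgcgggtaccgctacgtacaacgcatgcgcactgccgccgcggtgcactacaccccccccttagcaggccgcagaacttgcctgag
Pgam2 held 5 E-boxes, of which 1 was CAGCTG, and 1 MEF2 match that began 80 bases before the start. Its general partner Pgam1 held 0 of both. Ckm held 1 E-box, a CAGCTG at the far end of the window, and Eno3 held 1 E-box that began 81 bases before its start. Ckb held 0 E-boxes but 1 MEF2 match, which began 29 bases before the start and contains the TATA box TATAAA. Among 32851 windows of the same length, 66.2% held a CANNTG, 13.0% a CAGCTG (a special case of CANNTG), 2.92% a MEF2 match and 12.4% a TATAAA, all searched on both strands. A match is a description of the letters and not a binding site, and enhancers further away were not examined. For Ckm, Pgam2 and Pgam1 no protein-coding transcript of GENCODE M21 was found to begin near the start used, so their distances are uncertain. Of the windows not shown, the single one of Pfkl held 3 E-boxes and that of Ldhb 0. The 4 starts of Pfkm held 3, 0, 1 and 1 E-boxes, and the 3 starts of Eno1 held 2, 0 and 0. Each of the 2 starts of Ldha held 2 E-boxes. At the first start of Ldha both were CACGTG, a letter string found in 6.02% of windows.

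In all 4 libraries the muscle form was the more abundant of the pair for phosphofructokinase, phosphoglycerate mutase, enolase and lactate dehydrogenase, and the general form was the more abundant for creatine kinase. Levels were compared between genes without scaling to length, since a 3' molecule is counted once whatever its length. Among the muscle forms Ckm was lowest, Pfkm next and Pgam2 in the middle in every library. Eno3 and Ldha led, with Ldha above Eno3 in both young libraries and below it in both aged ones.

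**Figure D1:**
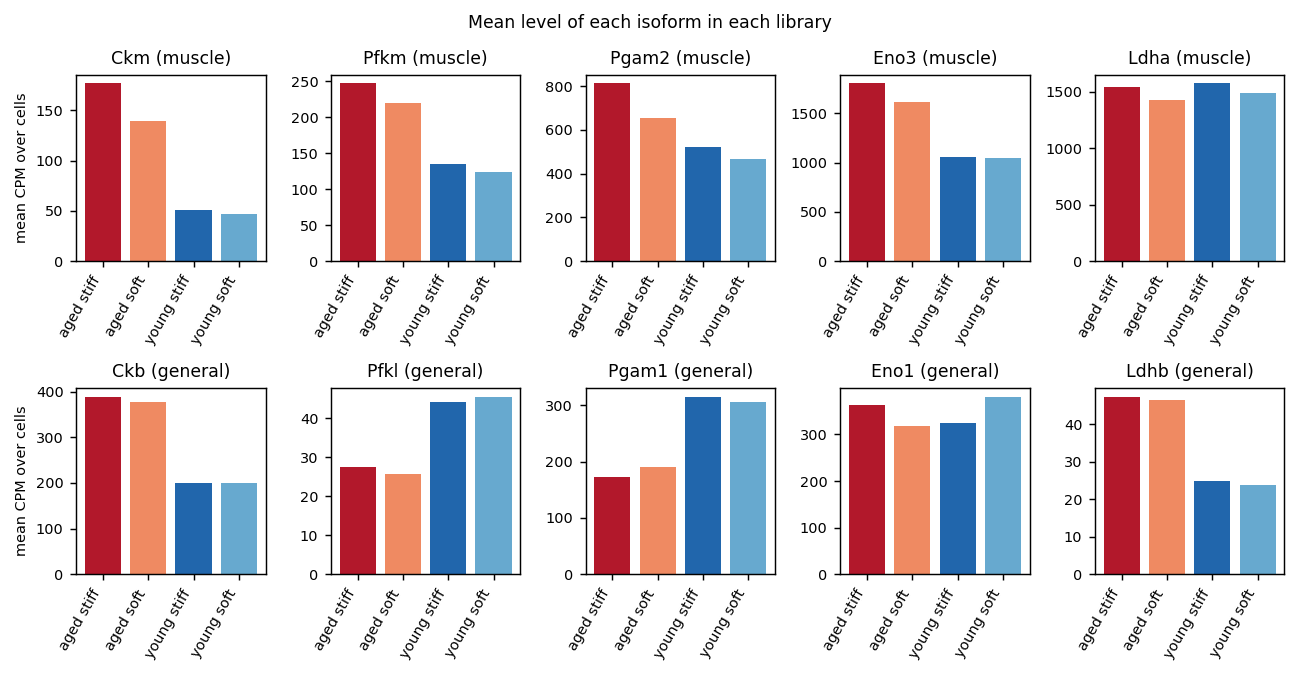
Mean level in CPM over the cells of each library (1 bar per library, 1 panel per gene, each axis starting at 0 with its own scale), muscle isoforms above and general isoforms below. Ckm, Ckb, Pfkm, Pgam2, Eno3 and Ldhb are higher in both aged libraries than in both young ones, Pfkl and Pgam1 are lower, and Ldha lies between 1425 and 1574 CPM in all 4.

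Ckm, the creatine kinase of the contractile apparatus, averaged 177 CPM in aged stiff and 139.6 CPM in aged soft cells, against 51.0 CPM in young stiff and 46.9 CPM in young soft cells. Its partner Ckb averaged 389 CPM in aged stiff and 377 CPM in aged soft cells, against 199.9 CPM in young stiff and 199 CPM in young soft cells. The creatine kinase pair was therefore higher in aged cells through both of its genes, and its summed level was 565 and 517 CPM in aged stiff and aged soft cells against 251 and 246 CPM in young stiff and young soft cells. Ckm took 31.7% of the pair's UMIs in aged stiff cells (exact interval 31.3 to 32.2%) and 27.7% in aged soft cells (27.2 to 28.2%), against 21.4% in young stiff (20.6 to 22.1%) and 19.5% in young soft cells (18.9 to 20.2%).

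In phosphofructokinase the muscle gene was higher and the general gene lower in aged cells. Pfkm, the muscle subunit, averaged 247 CPM in aged stiff and 219 CPM in aged soft cells, against 135 CPM in young stiff and 124 CPM in young soft cells. Pfkl, the subunit best known from liver, averaged 27.4 CPM in aged stiff and 25.6 CPM in aged soft cells, against 44.2 CPM in young stiff and 45.5 CPM in young soft cells. Pfkm held 90.9% and 90.5% of the pair's UMIs in aged stiff and aged soft cells, against 76.5% and 75.0% in young stiff and young soft cells.

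Phosphoglycerate mutase did the same. Pgam2, the muscle mutase, averaged 812 CPM in aged stiff and 653 CPM in aged soft cells, against 524 CPM in young stiff and 468 CPM in young soft cells. Pgam1, the form of most other tissues, averaged 173 CPM in aged stiff and 190.0 CPM in aged soft cells, against 315 CPM in young stiff and 305 CPM in young soft cells. The summed level of this pair differed less (986 and 843 CPM in aged stiff and aged soft against 839 and 773 CPM in young stiff and young soft cells), while the share of Pgam2 was 85.3% and 81.5% in the aged stiff and soft libraries against 65.3% and 63.9% in the young stiff and soft ones.

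In enolase most of the difference lay in the muscle gene. Eno3, the muscle enolase, averaged 1803 CPM in aged stiff and 1614 CPM in aged soft cells, against 1061 CPM in young stiff and 1045 CPM in young soft cells. Eno1, the enolase of most tissues, averaged 363 CPM in aged stiff and 318 CPM in aged soft cells, against 325 CPM in young stiff and 381 CPM in young soft cells, so its libraries did not order by age. Of the 30-base words in the ends of the Eno1 transcripts, 71.7% also occur in the near-identical gene Eno1b, so counts may have been split between them. Eno1b was low, at 2.68 to 4.47 CPM.

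Lactate dehydrogenase, where the names muscle and general are loose, was the exception among the pairs. Ldha, which favours lactate formation, averaged 1546 CPM in aged stiff and 1425 CPM in aged soft cells, against 1574 CPM in young stiff and 1489 CPM in young soft cells. Ldhb, the heart-type subunit, averaged 47.4 CPM in aged stiff and 46.6 CPM in aged soft cells, against 24.9 CPM in young stiff and 23.8 CPM in young soft cells. Ldha still took 97.1% and 97.0% of the pair's UMIs in aged stiff and aged soft cells, against 98.5% and 98.4% in young stiff and young soft cells. Of the words in the ends of the Ldhb transcripts 45.4% occur in the gene model Gm5514, which is no row of the tables, and 38.6% of those of Ckb and 24.5% of those of Ldha occur in other genes that are no rows either, so the levels of these 3 genes are uncertain where such copies took reads. For Pfkm the share was 2.63%, and for Ckm, Pfkl, Pgam2, Pgam1 and Eno3 it was 0. Ckm and Pfkm overlap a gene on the other strand (A930016O22Rik and Senp1), and whether counting used strand is not given in the sources used here.

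Between aged and young cells, members passed the threshold of 1.5-fold (on the ratio of mean CPM + 5, which understates the change of low genes) far more often than between substrates. On stiff substrate 6 of 10 members were at least 1.5 times higher in aged cells, against 3.32% of all 6047 genes measured, and 2 were at least 1.5 times lower, against 12.2%. On soft substrate 5 of 10 were higher, against 2.96% of 6147 genes, and 2 were lower, against 10.7%. The members were chosen with these data known, so the counts describe them only. The median of the 5 muscle isoforms was 0.76 on stiff and 0.62 on soft substrate on the log2 scale, that of the 5 general isoforms 0.16 and -0.26, and that of all genes -0.13 and -0.12.

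Among the muscle isoforms the log2 ratio of aged to young was 1.70 on stiff and 1.48 on soft substrate for Ckm. For Pfkm it was 0.85 and 0.79, for Eno3 0.76 and 0.62, and for Pgam2 0.63 and 0.48, the last short of the threshold. Ldha stood at -0.03 and -0.06, and under median-of-ratios scaling at 0.08 and 0.04. The ratios of summed UMIs were 3.39 (3.25 to 3.54) on stiff and 3.04 (2.91 to 3.18) on soft substrate for Ckm. The direction was the same on stiff and on soft substrate for Ckm, Pfkm, Eno3 and Pgam2. The stiff and the soft comparison share no library, but the labels do not say whether their cells came from the same animals.

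Among the general isoforms Ckb and Ldhb were higher in aged cells. Their log2 ratios were 0.94 on stiff and 0.91 on soft substrate for Ckb, and 0.81 and 0.84 for Ldhb. Pfkl and Pgam1 were lower, with -0.60 on stiff and -0.72 on soft substrate for Pfkl and -0.84 and -0.67 for Pgam1. Under median-of-ratios scaling Pfkl reached -0.51 on stiff and Pgam1 -0.57 on soft substrate, both short of the threshold. Eno1 stood at 0.16 on stiff and -0.26 on soft substrate.

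The muscle to general ratio was at least 1.5 times higher in aged cells in 4 of 5 pairs on stiff and in 3 of 5 on soft substrate, and at least 1.5 times lower in 1 of 5 on both, the lactate dehydrogenases. The log2 change of the ratio was 1.45 and 1.52 for phosphofructokinase, 1.47 and 1.15 for phosphoglycerate mutase, 0.61 and 0.88 for enolase, 0.76 and 0.57 for creatine kinase and -0.83 and -0.90 for lactate dehydrogenase, on stiff and on soft substrate. Creatine kinase on soft substrate was thus the 1 pair just under the threshold of 0.585. With the libraries weighted to the same shares of cells by sarcomere level, only phosphofructokinase was higher past the threshold, at 0.79 on stiff and 1.00 on soft substrate. Phosphoglycerate mutase was then at 0.31 and 0.22, creatine kinase at 0.45 and 0.35, and lactate dehydrogenase at -0.90 and -0.96. Enolase was at -0.07 on stiff substrate, the reverse of its direction over all cells, and at 0.35 on soft.

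Between stiff and soft substrate no member passed 1.5-fold at either age. In aged cells 0 of 10 members were at least 1.5 times higher or lower on stiff substrate, where 0.126% and 0.0901% of 5552 genes were. In young cells it was also 0 and 0 of 10, where 0.0166% and 0.149% of 6034 genes were. Over all cells the 5 muscle isoforms nonetheless each stood above 0 at both ages, where 37.1% (aged) and 38.9% (young) of all genes did. Of the 5 general isoforms 4 in aged and 3 in young cells stood above 0 too. The largest of the members were Ckm (0.33) and Pgam2 (0.31) in aged cells, with ratios of summed UMIs of 1.20 (1.16 to 1.23) for Ckm and 1.20 (1.18 to 1.21) for Pgam2. In young cells Pgam2 was largest at 0.16, Eno3 stood at 0.02, and Ckm stood at 0.11 but at -0.09 with cells thinned to 2000 UMIs. With the libraries weighted to the same shares of cells by sarcomere level, Ckm stood at 0.15 and Pgam2 at 0.12 in aged cells. In young cells Ckm was then at 0.11 and Pgam2 at 0.07. Eno3 stood at -0.004 in aged and -0.04 in young cells in that setting.

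Aged libraries held fewer cells low in sarcomere RNA, and the isoforms differed along that order. When cells were put in 5 equal bins by the summed level of 24 sarcomere genes (actins, myosins, troponins, titin and nebulin among them), the lowest bin held 8.57% of aged stiff and 14.2% of aged soft cells, against 29.1% of young stiff and 30.4% of young soft cells. The highest held 31.0% and 22.5% of aged stiff and aged soft cells, against 13.7% and 10.3% of young stiff and young soft cells. Cells without a Myog UMI made up 8.98% of aged stiff and 13.4% of aged soft cells, against 29.4% of young stiff and 23.3% of young soft cells.

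Over Myog, the muscle isoforms were near their lowest where Myog was absent. Cells with Myog were cut into 4 equal bins at 616, 1420 and 2972 Myog CPM over the 4 libraries. The cells without Myog were the shallowest, with a median of 24613 UMIs against 30772 to 39314 in the other bins. Ckm had 15 and 51 UMIs over all aged stiff and aged soft cells without Myog, and 0 and 3 over all young stiff and young soft ones. In the highest Myog bin it had 2118 and 2064 UMIs in aged stiff and aged soft cells, and 1194 and 1211 in young stiff and young soft cells. Per UMI sequenced that was 45.6-fold higher in aged stiff (27.6 to 81.7), 15.7-fold in aged soft (11.9 to 21.2), at least 442-fold in young stiff (taking 3 UMIs in the library as the floor for a count of 0) and 365-fold in young soft cells (125 to 1772).

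Pgam2 was 11.2 and 15.5 times higher in the highest Myog bin than in cells without Myog in aged stiff and aged soft cells and 31.3 and 25.6 times in young stiff and young soft cells, on the scale of mean CPM + 5. For Eno3 the fold was 5.84 to 7.58 and for Pfkm 4.82 to 7.28 over the 4 libraries. Ldha was 1.46 to 1.53 times higher, and passed 1.5-fold in 3 of the 4. In all, 4 of 5 muscle isoforms passed in every library, against 10.5% of 7171 genes. With 5 equal Myog bins ranked within each library 2 of 5 did, Ckm and Eno3, and the share of all genes was not counted there.

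Pfkm, Pgam2 and Eno3 did not follow Myog to its top. Pfkm was highest in the second Myog bin of each library, at 341 and 354 CPM in aged stiff and aged soft cells and at 305 and 286 CPM in young stiff and young soft cells, and in the highest bin it was at 126, 129.5, 97.7 and 93.7 CPM in the same order. Pgam2 also peaked in the second bin, at 953 to 1070 CPM, and was at 453 to 569 CPM in the highest. Eno3 peaked in the third bin of all 4 libraries. The cells highest in Myog also had less sarcomere RNA, with 61843 to 72364 CPM over the 24 genes against 99561 to 122247 CPM in the second bin. Ckm and Ldha in young cells, and the general isoforms Ckb, Eno1 and Pfkl in all 4 libraries, were instead highest in the top Myog bin.

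**Figure D2:**
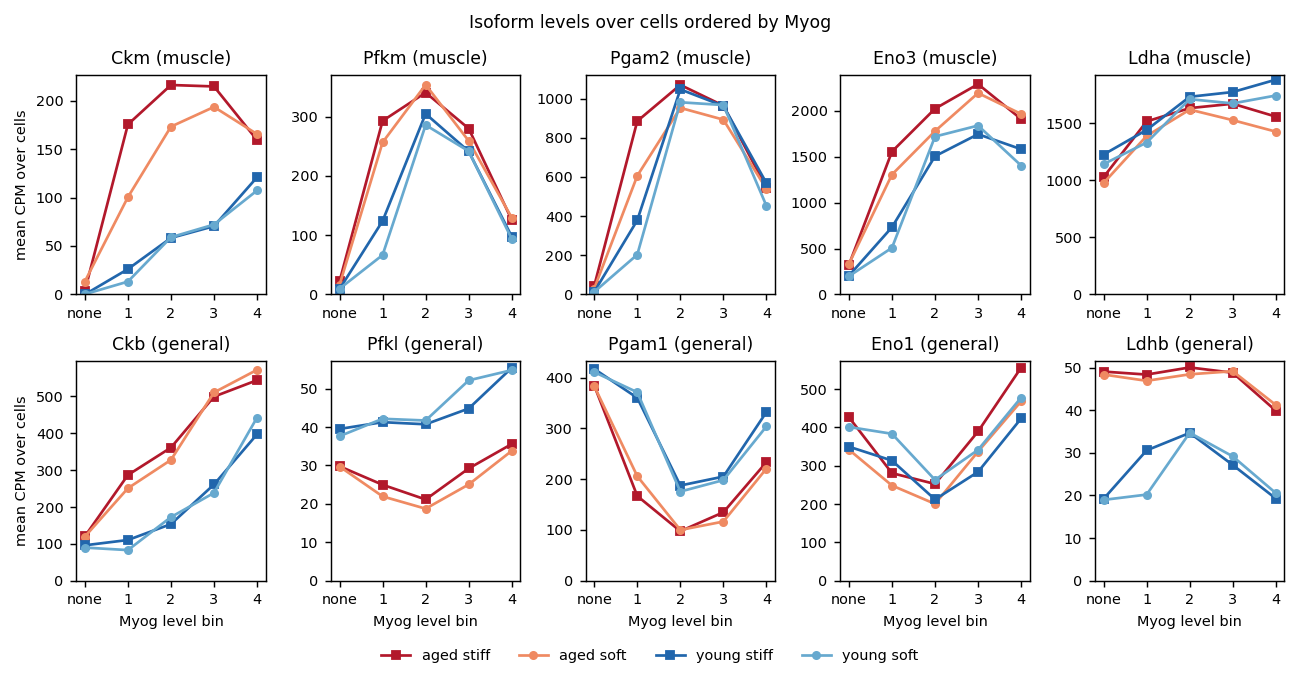
Mean CPM of each isoform (vertical axes from 0, own scale per panel) in cells without Myog (none) and in 4 bins of rising Myog level, 1 line per library. Pfkm, Pgam2 and Eno3 are highest in Myog bin 2 or 3, and Ckb, Eno1 and Pfkl in the last bin. Pgam1 and Eno1 dip in the middle, and Ldhb and Pfkl keep their aged and young lines apart in every bin.

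Of the general isoforms, none was at least 1.5 times lower in the highest Myog bin than in cells without Myog in all 4 libraries, where 23.3% of genes were. Pgam1 was lower in 2 of 4, the aged ones. Ckb behaved as the muscle genes did: it averaged 120.4 and 119.7 CPM in aged stiff and aged soft cells without Myog, and 544 and 572 CPM in their highest bins. In young stiff and young soft cells it averaged 96.1 and 89.9 CPM without Myog, and 397 and 443 CPM in the highest bins. Its fold was 3.98 to 4.72. Pfkl, Eno1 and Ldhb stayed within 1.5-fold in all 4 libraries.

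Ordered by sarcomere level, all 5 muscle isoforms were at least 1.5 times higher in the highest than in the lowest bin in every library, against 12.8% of 7258 genes. Pgam2 averaged 15.3 and 12.0 CPM in the lowest bins of aged stiff and aged soft cells and 1366 and 1263 CPM in the highest. In young stiff and young soft cells it averaged 10.9 and 9.63 CPM in the lowest and 1496 and 1420 CPM in the highest. The fold on the mean CPM + 5 scale was 67.4 to 97.4 for Pgam2, 17.7 to 22.4 for Pfkm, 8.99 to 13.2 for Eno3 and 1.80 to 1.99 for Ldha. Ckm had 8, 6, 0 and 3 UMIs in the lowest bins of aged stiff, aged soft, young stiff and young soft cells. Per UMI sequenced the highest bins were 138-fold (69.9 to 319), 194-fold (89.3 to 530.4), at least 383-fold (3 UMIs in the library as the floor) and 369-fold (125 to 1794) higher in that order.

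Pgam1 went the other way and was the 1 general isoform at least 1.5 times lower in all 4 libraries, where 38.7% of genes were. It averaged 389 and 389.7 CPM in the lowest bins of aged stiff and aged soft cells against 418 and 414 CPM in those of young stiff and young soft cells. In the highest bins it averaged 87.0 and 87.3 CPM in aged stiff and aged soft cells, against 172 and 158 CPM in young stiff and young soft cells. Eno1 was 0.73 to 0.84 times its lowest-bin level. Ckb was 2.59 to 4.32 times higher, and Ldhb 1.13 to 1.65 times.

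The switch within a pair was widest for phosphoglycerate mutase. Pgam2 took 3.88% and 3.05% of the pair's UMIs in the lowest sarcomere bins of aged stiff and aged soft cells, and 93.8% and 93.2% in the highest. In young stiff and young soft cells it took 2.35% and 2.20% in the lowest, and 89.1% and 89.5% in the highest. The range of Pfkm was narrower, with 29.2% and 28.4% of its pair in the lowest bins of aged stiff and aged soft cells and 19.7% and 18.1% in those of young stiff and young soft cells, against 92.9%, 92.8%, 85.1% and 84.0% in the highest. Eno3 already held 32.7 to 46.2% in the lowest bins and 88.6 to 89.7% in the highest. Ckm took at most 36.8% of creatine kinase UMIs in any sarcomere bin, and Ldha at least 95.8% of its pair.

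**Figure D3:**
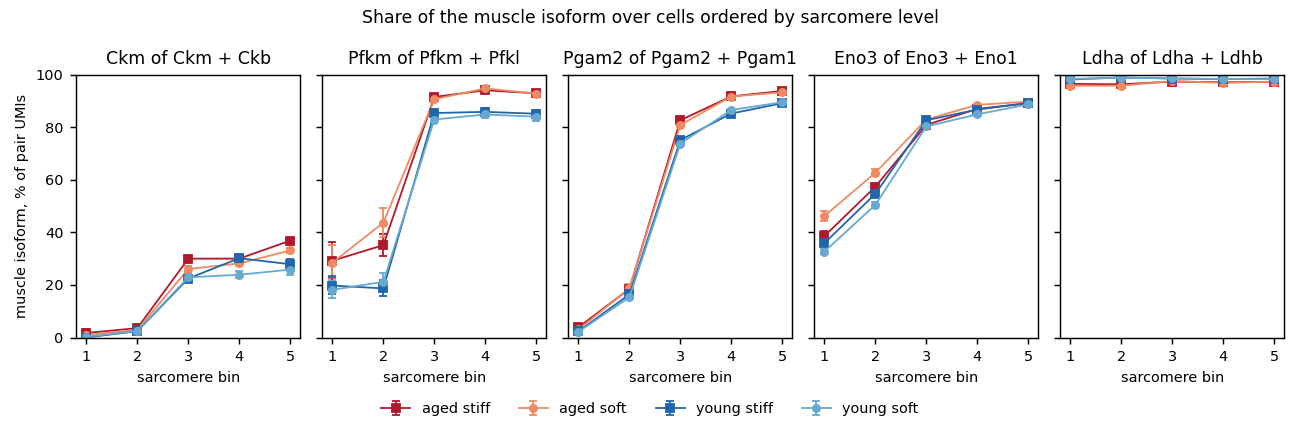
Share of the muscle isoform among the UMIs of its pair (vertical axis, percent) in 5 bins of rising sarcomere level, 1 line per library, with exact 95% intervals for counting error. The share of Pgam2 climbs from 2.20 to 3.88% in bin 1 to 89.1 to 93.8% in bin 5, while Ckm reaches at most 36.8% and Ldha is at least at 95.8%.

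Single cells held both forms of most pairs at once. Of 5328 cells with at least 10 enolase UMIs, 97.6% had both Eno3 and Eno1, and the median cell drew 81.4% of them from Eno3. Of 4824 cells with at least 10 phosphoglycerate mutase UMIs, 78.0% had both genes, 15.2% only Pgam1 and 6.84% only Pgam2. In the lowest sarcomere bin 76.2% of such cells had only Pgam1, and in the highest none did. Of 2242 cells with at least 10 creatine kinase UMIs 22.5% had only Ckb and 1.20% only Ckm. Both genes were found in 60.7% of 2222 such cells for phosphofructokinase and in 55.3% of 5693 for lactate dehydrogenase. All 66 creatine kinase cells of the lowest sarcomere bin had Ckb without Ckm.

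Free RNA can place a muscle transcript in an undifferentiated cell. The part of free RNA and of doublets, which were not called, was not tested. With every cell thinned to 2000 UMIs, Ckm was found in 21.6% of aged stiff and 18.1% of aged soft cells, against 6.02% of young stiff and 7.35% of young soft cells, and in at most 0.242% of cells of the lowest sarcomere bin of any library. Without thinning these shares were 57.3%, 52.1%, 24.7% and 27.5% in the same order, at median depths of 37081, 33313, 28613 and 35607 UMIs.

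With the libraries at the same sarcomere make-up, Ckm, Ckb and Ldhb still passed 1.5-fold between aged and young cells on both substrates, and Pfkl on soft substrate. Each library was weighted to the same shares of the 5 sarcomere bins, a setting chosen after seeing the data. Aged over young, the log2 ratio of Ckm was then 1.05 on stiff and 1.01 on soft substrate, of Ckb 0.61 and 0.66, and of Ldhb 0.69 and 0.75. Pfkl stood at -0.54 and -0.73. For the other muscle isoforms the ratio was smaller: Pfkm stood at 0.24 and 0.26, Eno3 at 0.19 and 0.15, and Pgam2 at -0.08 and -0.13, the reverse of its direction over all cells. Pgam1 stood at -0.39 and -0.34, and Ldha at -0.21 on both substrates.

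**Figure D4:**
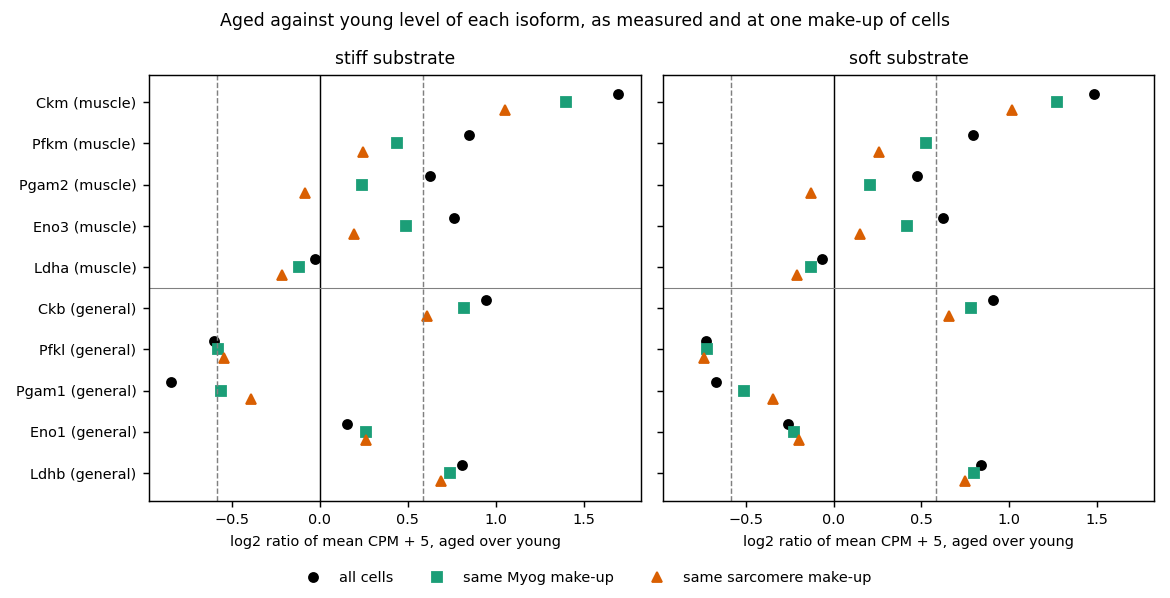
Log2 ratio of mean CPM + 5, aged over young (horizontal axis), of each isoform over all cells (circles), with the libraries at the same Myog make-up (squares) and at the same sarcomere make-up (triangles), on stiff (left) and soft (right) substrate. Dashed lines mark 1.5-fold. Ckm, Ckb and Ldhb lie beyond the right dashed line in all 3 settings, and Pgam2 crosses 0.

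The age difference was not even across the bins. In the highest sarcomere bin Ckm averaged 294 and 251 CPM in aged stiff and aged soft cells, against 108 and 83.4 CPM in young stiff and young soft cells, a log2 ratio of 1.40 on stiff and 1.53 on soft substrate. Ordered by Myog it was largest low in the order, at 2.53 on both substrates in the lowest bin with Myog, and smallest in the highest, at 0.38 on stiff and 0.60 on soft substrate. In that lowest bin with Myog, sarcomere RNA averaged 88023 and 69087 CPM in aged stiff and aged soft cells. In young stiff and young soft cells of the bin it averaged 34329 and 18690 CPM. The bin thus held cells of unlike sarcomere level at the 2 ages, and the part of this in the Ckm ratio was not tested. The bins with the larger Ckm ratio thus differed between the orders. Over the sarcomere bins Ckb was higher in aged cells in 5 of 5 bins on both substrates, by 0.20 to 1.14. Ldhb was also higher in 5 of 5, by 0.47 to 1.30, and Pfkl was lower in 5 of 5, with ratios of -1.11 to -0.21. Ckm, Pfkm and Eno3 were likewise higher in 5 of 5 bins on both substrates, and Pgam1 and Ldha lower in 5 of 5. The bins of a comparison come from the same libraries, and the share of all genes with 1 sign in every bin was not counted. For Ldhb the ratio in the lowest bin was 0.63 on stiff and 1.01 on soft substrate, and for Eno3 0.52 and 0.63.

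Cells without Myog were also compared by division. Mki67, a marker of dividing cells, split them into cells with and without a UMI of it. Pgam1 was higher in the cells with Mki67 in 4 of 4 libraries, with log2 ratios of 0.29 to 0.43. Eno1 was higher in 4 of 4, with 0.11 to 0.25, and so was the muscle isoform Ldha, with 0.05 to 0.31. These were all short of 1.5-fold. The share of all genes with 1 sign in all 4 libraries was not counted. Ckb was lower in 4 of 4, with -0.31 in both aged libraries and -1.39 and -1.01 in young stiff and young soft. Ldhb was also lower in 4 of 4, with -0.89 to -0.11, as were Pgam2 (-2.06 to -0.10) and Pfkm (-1.25 to -0.05). In aged stiff and aged soft cells Pgam2 averaged 14.2 and 6.28 CPM with Mki67 and 59.5 and 41.9 CPM without it. Where the cells without Mki67 also had a UMI of the myogenic gene Pax7, it averaged 21.5 and 34.9 CPM. Cells without Mki67 may thus differ in maturity too, and its part was not tested. Pfkl ranged from -0.19 to 0.02 and Ckm from -1.71 to 0.00. Eno3 was lower in the aged and higher in the young libraries (-0.28 to 0.49). Depth differed with Mki67 too (27584 against 20952 median UMIs in young stiff), and its part was not tested. Mki67 itself averaged 28.7 and 38.5 CPM in aged stiff and aged soft cells, against 128 and 130.5 CPM in young stiff and young soft cells.

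The stiff to soft ratio had opposite signs at the 2 ages for Eno1, Pgam1 and Pfkl, and differed most for Eno1. On stiff substrate Eno1 was higher in aged cells, with a log2 ratio of 0.19 and a ratio of summed UMIs of 1.13 (1.10 to 1.15), and lower in young cells, with -0.22 and 0.850 (0.832 to 0.869). The direction was the same in 5 of 5 sarcomere bins and 5 of 5 Myog bins at each age. All bins of an age come from the same libraries, and the share of all genes with 1 sign in every bin was not counted. In aged cells the ratios were 0.14 to 0.34 over the sarcomere bins and in young cells -0.27 to -0.17. Its copy Eno1b stood at 4.47 and 2.86 CPM in aged stiff and aged soft cells. In young stiff and young soft cells Eno1b stood at 2.68 and 4.12 CPM, so its directions were those of Eno1. Of the words in the ends of the Eno1b transcripts 79.8% occur in Eno1, so the counts of Eno1b may not be separate. For Pgam1 the ratio of summed UMIs was 0.911 (0.885 to 0.938) in aged and 1.05 (1.02 to 1.07) in young cells, and for Pfkl the intervals included 1 at both ages. With 1 library each, no difference between the ages was tested.

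**Figure D5:**
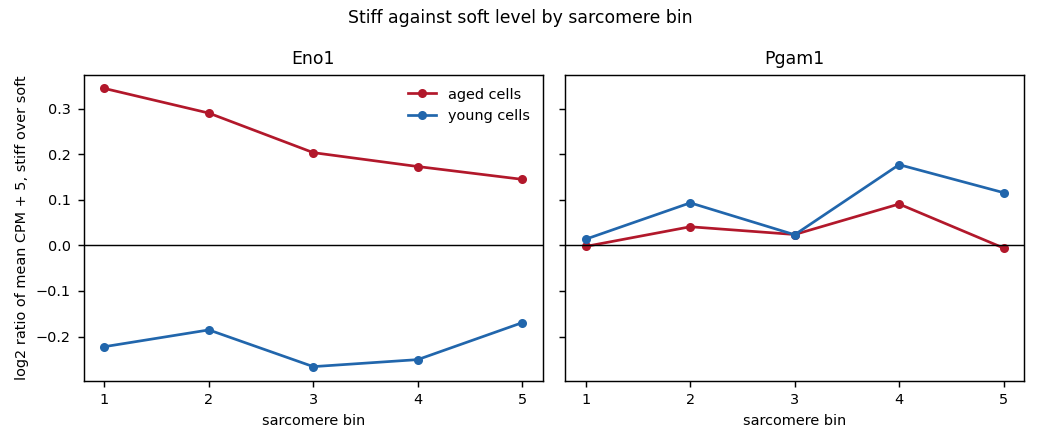
Log2 ratio of mean CPM + 5, stiff over soft (vertical axis), of Eno1 and Pgam1 in 5 bins of rising sarcomere level, in aged cells and in young cells (1 line each, 1 library per point and group). The aged line of Eno1 lies at 0.14 to 0.34 and the young line at -0.27 to -0.17, while for Pgam1 both ages lie between -0.01 and 0.18.

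The other genes of these pathways were counted from lists. Of 9 measured genes of glycolysis outside the pairs, 1 was at least 1.5 times higher and 0 lower in aged than young cells on stiff substrate (3.32% and 12.2% of all genes), and 1 higher and 1 lower on soft (2.96% and 10.7% of all genes), with medians of 0.02 and 0.10. The largest was aldolase Aldoa, at 0.74 and 0.64, for which values fell between whole counts and the level is uncertain. Pfkp, the platelet-type phosphofructokinase, had the lowest ratio on soft substrate, and averaged 21.2 and 19.1 CPM in aged stiff and aged soft cells against 31.5 and 31.8 CPM in young stiff and young soft cells, with log2 ratios of -0.48 and -0.61.

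Of the measured genes of glycogen use, 8 of 8 stood above 0 in aged against young cells on both substrates, where 35.6% (stiff) and 35.3% (soft) of all genes did. At least 1.5 times higher were 4 on stiff substrate, against 3.32% of all genes, and 3 on soft, against 2.96%. Gys1, which builds glycogen, averaged 203 and 183 CPM in aged stiff and aged soft cells, against 113 and 95.8 CPM in young stiff and young soft cells. Its log2 ratios were 0.82 and 0.90, and those of Phka2, a subunit of the kinase that activates glycogen breakdown, were the smallest at 0.14 and 0.26. Of 4 measured genes of creatine and adenylate buffering, 1 was higher and 0 lower on each substrate, beside the same shares of all genes, adenylate kinase Ak1 (0.72 and 0.74), and the creatine transporter Slc6a8 was lowest (-0.37 and -0.35). Of 7 measured genes of transport and pyruvate entry 1 was higher and 1 lower on each substrate, where 3.32% of all genes were higher and 12.2% lower on stiff and 2.96% and 10.7% on soft: Pdk2, which restrains pyruvate dehydrogenase, at 0.72 and 0.68, and the glucose transporter Slc2a1 at -0.61 and -0.71.

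Other muscle and general pairs were read over all cells only, and were not weighted to a common make-up of cells. Aged over young, the log2 change of the ratio was 1.08 on stiff and 0.90 on soft substrate for the cytochrome oxidase subunits Cox6a2 and Cox6a1. It was 0.64 and 0.55 for Cox7a1 and Cox7a2, and 0.95 and 0.92 for Cox8b and Cox8a. It was 0.76 and 0.69 for the ADP/ATP carriers Slc25a4 and Slc25a5, and 1.10 and 0.93 for the glycogen phosphorylases Pygm and Pygb, where Pygb was at 3.69 to 6.05 CPM, near the 5 CPM added. Cox6a2 took 80.8% and 76.8% of its pair's UMIs in aged stiff and aged soft cells, against 65.3% and 61.8% in young stiff and young soft cells. The phosphorylase kinase subunits changed less, with 0.38 and 0.11 for Phka1 and Phka2 and -0.07 and 0.23 for Phkg1 and Phkg2, and Slc2a4 over Slc2a1 changed by 0.90 and 0.72. For Ampd1 over Ampd2 the change was 0.58 and 0.19. Pygb, Slc2a4, Phkg1, Phkg2, Ampd1 and Ampd2 were under 20 CPM in all 4 libraries, so the changes of these pairs rest on genes that the filter on low values would leave out. Fbp2 and Fbp1 were not analysed here.

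Over 20 points (5 Myog bins in each of 4 libraries) the genes most like each member were ranked by Pearson's r of log2(mean CPM + 5) among 7292 genes. The points share libraries and bins, so r is a description. Pgam2 was most like the sarcomere and calcium release genes Tnnc1 (0.997) and Ryr1 (0.996), Pfkm most like Art1 (0.997) and Pygm (0.996), and Eno3 most like tropomyosin Tpm2 (0.998). Ckm was most like Dhrs7c (0.973) and Ckb like Tmem11 (0.970). Pgam1 was most like the RNA-binding protein gene Hnrnpm (0.984), Pfkl like Vgll2 (0.969), Eno1 like Mtdh (0.938), Ldha like Zfp706 (0.964) and Ldhb like Haghl (0.943), followed by the fatty acid oxidation genes Ech1 (0.924) and Acadvl (0.909).

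Within the pairs, the r over the same points was 0.894 for Ckm and Ckb, -0.245 for Pfkm and Pfkl, -0.770 for Pgam2 and Pgam1, -0.201 for Eno3 and Eno1 and -0.099 for Ldha and Ldhb. The muscle isoforms Ckm, Pfkm, Pgam2 and Eno3 lay between 0.868 and 0.978 of each other, and Ldha between 0.741 and 0.858 of them. Ldhb and Pfkl ran opposite to each other, with -0.806.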

How the data were processed

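The data were 4 single-cell 3' RNA libraries (10x Chromium, version 3 chemistry, per the labels' protocols) of cultured cells. The authors deposited log2(CPM + 1) values per cell. Per the submitters' processing notes Cell Ranger 6.1.2 and Partek were used, with no role given, and the genome build is not given in the sources used here. UMI counts were recovered from the steps of the deposited values (at least 99.95% of values whole within 0.05, members all whole). Cells with under 500 genes or over 20% mitochondrial counts were left out. Doublets were not called.

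Levels are mean CPM over cells, and comparisons are log2 ratios of mean CPM + 5 among genes of at least 20 CPM in either library, called at 1.5-fold. Other isoform pairs were read without that filter. With 1 library a group there is no test. Intervals (exact binomial for shares, exact conditional binomial for ratios of summed UMIs, 95%) cover counting error only. The members and lists were chosen with earlier results of these data known. The text names every member, and of each list the genes with the highest and lowest aged to young ratio on soft substrate. Copies were sought as shared 30-base words in the last 500 bases of protein-coding transcripts (GENCODE M21, where 13756 of 13772 identifiers were found). The steps were tested on simulated data. Alternatives were a pseudocount of 1, summed UMIs, median-of-ratios scaling, other cell filters, thinning to 2000 UMIs, other Myog bins and common Myog or sarcomere make-up. Python 3.11.15, numpy 2.4.6, scipy 1.17.1, pandas 2.3.3 and matplotlib 3.10.9 were used.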

Additional observations from a re-analysis of the deposited data

Results flagged for a closer look

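Eno1 stood out because its stiff to soft ratio had opposite signs at the 2 ages, with counting intervals that excluded a ratio of 1 at both. The log2 ratio was 0.19 in aged and -0.22 in young cells, a difference of 0.415. Over the alternatives it was 0.17 to 0.25 in aged and -0.24 to -0.18 in young cells. The level of Eno1 is uncertain where reads were split with Eno1b.

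Pgam1 stood out for the same reason, with -0.13 in aged and 0.04 in young cells, a difference of -0.174. The aged ratio was -0.01 at a common Myog make-up and 0.02 at a common sarcomere make-up. With 1 library for each age and substrate neither difference was tested.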

How the results depend on the processing

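The 21 counts of members and pairs kept within 1.5 times their value with a pseudocount of 1, with summed UMIs, with no filter on cells and without cells under 1% mitochondrial counts. Members at least 1.5 times lower in aged cells numbered 1 on stiff and 1 on soft substrate under median-of-ratios scaling and likewise 1 and 1 with thinned cells, in place of 2 and 2. At a common Myog make-up 3 members were higher and 0 lower on stiff substrate, and 3 higher and 1 lower on soft, in place of 6, 2, 5 and 2, and 2 pairs had a higher ratio on stiff substrate in place of 4. At a common sarcomere make-up, chosen after seeing the data, 3 members were higher and 0 lower on stiff and 3 higher and 1 lower on soft substrate, and 1 pair, phosphofructokinase, had a higher ratio on each, in place of 4 on stiff and 3 on soft, with enolase at -0.07 on stiff in place of 0.61. Pgam2, aged against young on stiff substrate, turned to -0.085 there, in place of 0.63. With Myog ranked within each library 2 muscle isoforms and 2 pairs were higher in the highest Myog bin, and with Myog from thinned cells 2 muscle isoforms and 1 pair, in place of 4 and 4. The cause was not tested. Median-of-ratios scaling moved the median of all genes, aged against young, to -0.03 on stiff and -0.03 on soft substrate, in place of -0.13 and -0.12. At a common Myog make-up that median was -0.08 and -0.10, and at a common sarcomere make-up -0.04 and -0.06. The share of all genes past 1.5-fold was counted in the main setting only. The counts under the alternatives therefore have no such share beside them. No paired analysis was possible because each group has 1 library.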
